A study of Mus musculus with 32 samples.

Results

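The proteasome subunit genes of mouse frontal cortex (FCtx) are described here, as they were measured on Illumina MouseRef-8 v2.0 arrays in mice that drank ethanol and in controls. The genes were taken by name, as every probe whose gene symbol starts with Psma, Psmb, Psmc, Psmd, Psme, Psmf or Psmg followed by a digit. This rule was set with earlier results of these data known. The rule found 44 of the 18138 gene symbols of the table, with 65 of its 25697 probes. Psmc3ip, a factor of meiotic recombination, meets the rule by its spelling and is not a proteasome subunit. It is named where it was called. The counts, shares, medians and mean signals of the proteasome genes below include it, whereas the correlations and promoter windows leave it out.

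The proteasome is the protease that degrades proteins tagged with ubiquitin in the cytoplasm and nucleus. Its barrel, the core particle, is built of outer rings of alpha subunits (Psma genes) that gate the entrance and inner rings of beta subunits (Psmb genes), a few of which carry the proteolytic sites. A regulatory particle on the end of the barrel holds a ring of ATPases (Psmc genes) that unfold substrates and pull them in, and non-ATPase subunits (Psmd genes) that bind ubiquitin chains, remove them or hold the particle together. Psme genes encode other activator caps, Psmf1 an inhibitor, and Psmg genes chaperones that assemble the core. In brain the proteasome is known for turnover of synaptic proteins and of misfolded proteins.

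Total RNA came from the FCtx of 32 female F1 mice of the strains C57BL/6J and FVB/NJ, 20 ethanol-treated and 12 controls, with 1 mouse per array. The Methods describe a choice between bottles of 20% ethanol and water during limited sessions in the dark on 20 days, and call the controls matched. The labels name 1 direction of the cross and the Methods name both, and the study places the drinking in early adulthood without an exact age in the sources used here. Chips 1 and 2 held 8 ethanol-treated mice each, chip 4 held 8 controls, and chip 3 held both groups in alternation, with 4 ethanol-treated mice in the odd places (A, C, E, G) and 4 controls in the even places (B, D, F, H).

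Because each of the other chips held mice of a single group, treatment cannot be told apart from chip over chips 1, 2 and 4, nor from odd or even position on chip 3. Between 9480 and 11544 probes per array were detected, and the fewest came from control C66 on chip 4. Markers of neighbouring tissue varied between arrays. The mean level of 9 oligodendrocyte genes ranged from 10.33 to 11.42 on the log2 scale within chip 1, and that of 5 olfactory bulb genes from 8.28 to 9.73 over the ethanol-treated mice of chips 1 and 2. General neuron markers were detected, with a mean level of the 6 tested genes between 12.28 and 12.49 on every array. Arrays number 32, and this number limits the precision of all values below.

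A probe was tested where its detection p-value was below 0.01 on at least 24 of the 32 arrays. This left 36 of the 44 proteasome genes with 48 probes, out of 7926 genes with 10187 probes in all. Most of the subunits of the core and of the regulatory particle were therefore measurable in FCtx. The probes of Psma1, Psma3 and Psma6, which encode alpha subunits, were detected on 0 of 32 arrays. A probe below background gives only an upper bound for its transcript, so these genes have no value here. Psmc6, an ATPase, was detected on 2 arrays. Psmd6, a lid subunit, had probes detected on 21 and 0 arrays, and Psmd9, an assembly chaperone of the base, on 14 and 12 arrays. The immunoproteasome is a form of the core that is induced by interferon. Of its subunits, Psmb8 was detected on 2 arrays and Psmb9 on 19, whereas both probes of Psmb10 were detected on all 32.

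Over all arrays, 3 of the 36 tested proteasome genes differed between 20 ethanol-treated mice and 12 controls at a false discovery rate (FDR) below 1% by limma, all lower in ethanol-treated mice. They were Psmb7, a catalytic beta subunit, Psmd10, a chaperone of base assembly also called gankyrin, and Psmg3, a chaperone of core assembly. The share of 8.33% lay beside 8% of all tested genes called in either direction and 5.07% called lower. The proteasome genes were thus called about as often as genes in general. This fit leaves out the chip. With chip as a random block (estimated correlation 0.12) or as a fixed block, 0 of the 36 genes passed by limma, beside 0.643% and 0.164% of all genes, and 7 and 4 of the 36 had an unadjusted p below 0.05. The log2 fold changes with the random and the fixed block were -0.20 and -0.18 for Psmb7, -0.18 and -0.17 for Psmg3, and -0.16 and -0.04 for Psmd10. With the fixed block only chip 3, which held both groups, informs the treatment difference. The fixed-block values are thus the differences on chip 3, where treatment goes with position. The log2 fold changes of the 36 genes ranged from -0.20 to 0.08, with 26 negative and a median of -0.04, whereas 53.2% of all tested genes were negative with a median of -0.01. At the looser threshold of an FDR below 10% and a change of 1.1-fold or more, 7 of the 36 genes passed (19.4%, against 11.7% of all genes), and each was lower in ethanol-treated mice. The 4 genes added were Psmb6, Psmc3, Psmd14 and Psmc3ip. In bulk tissue, fewer cells of a type and less RNA per cell cannot be told apart.

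**Figure D1:**
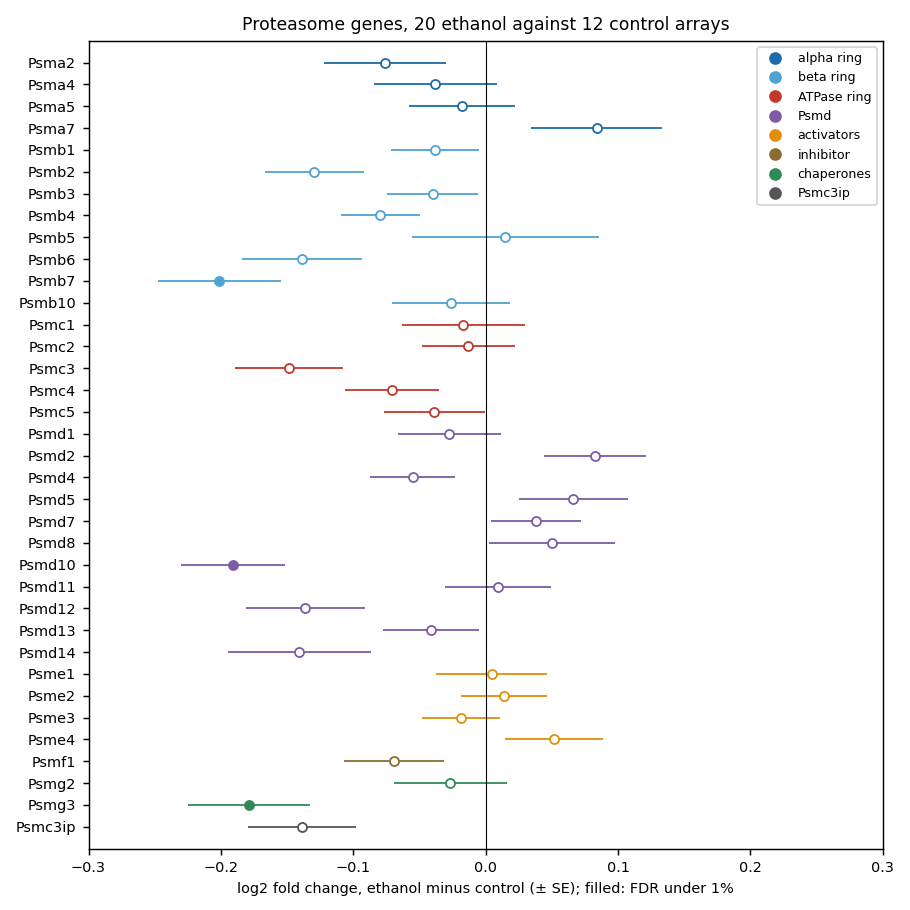
Log2 fold change of each of the 36 tested proteasome genes (horizontal axis, ethanol-treated minus control, 20 against 12 arrays, bars give the SE), ordered and coloured by family. The 3 filled points, Psmb7, Psmd10 and Psmg3, passed an FDR of 1% by limma, and 26 of the 36 points lie left of 0.

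The beta ring had the largest number of genes below 0, though fewer were tested in the ATPase ring, where all 5 lay below 0. Of its 8 tested genes, 7 had a negative log2 fold change (median -0.06) and 1, Psmb7, passed an FDR of 1%. Psmb7 encodes the subunit that cuts after basic residues. Its log2 signal was lowest at 11.37, in the middle at 11.79 and highest at 11.98 in ethanol-treated mice, and 11.70, 11.99 and 12.14 in controls. All 20 ethanol-treated mice lay below the median of the controls and 7 of the 12 controls lay above every ethanol-treated mouse, so that the groups overlapped only in part. The means were 11.75 ± 0.13 (SD, n = 20) and 11.95 ± 0.13 (SD, n = 12), which gives a log2 fold change of -0.20 (SE 0.05, adjusted p = 0.0029 by limma), or -13.0%.

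The other constitutive proteolytic subunits did not pass. Psmb6, the subunit that cuts after acidic residues, averaged 11.42 ± 0.13 (SD, n = 20) and 11.55 ± 0.13 (SD, n = 12), with a log2 fold change of -0.14 (SE 0.05, adjusted p = 0.029). Psmb5, the subunit that cuts after hydrophobic residues and the main target of proteasome inhibitor drugs, averaged 9.54 ± 0.21 (SD, n = 20) and 9.53 ± 0.21 (SD, n = 12), with a log2 fold change of 0.01 (SE 0.07, adjusted p = 0.91). The spread between mice was wider for Psmb5 than for Psmb6 and Psmb7. Psmb2, a structural beta subunit, ranged from 10.95 to 11.31 in ethanol-treated mice and from 11.07 to 11.50 in controls, and its log2 fold change of -0.13 (SE 0.04) had an adjusted p of 0.014. Psmb1, Psmb3 and Psmb4, the remaining structural beta subunits, had log2 fold changes of -0.04, -0.04 and -0.08 and did not pass.

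The alpha ring showed no shared direction. Of its 4 tested genes, Psma2, Psma4 and Psma5 were at -0.08, -0.04 and -0.02 and Psma7 at 0.08 on the log2 fold change scale, and 0 passed an FDR of 1% by limma over all arrays, nor was any unadjusted p below 0.05. The ATPase ring lay below 0 in all 5 tested genes, with a median of -0.04, 0 genes past an FDR of 1% by limma and 1 gene at an unadjusted p below 0.05. Psmc3, one of the ATPases, had the strongest difference of the ring. Its signal ranged from 10.72 to 10.98 with a median of 10.84 in ethanol-treated mice, and from 10.78 to 11.32 with a median of 11.002 in controls. All 20 ethanol-treated mice were below the control median, and the log2 fold change of -0.15 (SE 0.04) had an adjusted p of 0.01001 by limma, just outside the threshold of 1%. Psmc1, Psmc2, Psmc4 and Psmc5 had log2 fold changes between -0.07 and -0.01, with adjusted p-values from 0.165 to 0.84.

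The 11 tested Psmd genes were divided, with 6 negative and 5 positive log2 fold changes. Psmd10, the only one that passed, had a lowest signal of 9.43, a median of 9.64 and a highest of 9.79 in ethanol-treated mice, against 9.55, 9.80 and 10.02 in controls. No ethanol-treated mouse exceeded the control median, and 6 of the 12 controls lay above every ethanol-treated mouse. The means were 9.62 ± 0.08 (SD, n = 20) and 9.81 ± 0.15 (SD, n = 12), with a log2 fold change of -0.19 (SE 0.04, adjusted p = 0.0011 by limma), or -12.4%. Psmd14, the deubiquitinase of the lid that removes ubiquitin chains before degradation, had a log2 fold change of -0.14 (SE 0.05, adjusted p = 0.064). Psmd12, a lid scaffold subunit, was also at -0.14 (SE 0.05, adjusted p = 0.031). Psmd4, a ubiquitin receptor, was at -0.06 (adjusted p = 0.24). Psmd7, the partner of Psmd14 in the lid, was at 0.04 (adjusted p = 0.47), Psmd8, a lid subunit, at 0.05 (adjusted p = 0.495), and Psmd2, a scaffold of the base, at 0.08 (adjusted p = 0.14).

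Of the activators, 0 of 4 passed an FDR of 1% by limma, and 0 had an unadjusted p below 0.05. Psme1 and Psme2, whose products form the activator cap induced by interferon, had log2 fold changes of 0.00 (SE 0.04) and 0.01 (SE 0.03). Psme3, a nuclear activator, was at -0.02 (SE 0.03), and Psme4, the large activator known from DNA repair and spermatogenesis, at 0.05 (SE 0.04). Psmf1, the inhibitor, was at -0.07 (SE 0.04, adjusted p = 0.20). The assembly chaperones differed from each other. Psmg3 was lowest at 8.53, with a median of 8.83 and a highest value of 8.997 in ethanol-treated mice, against 8.74, 8.96 and 9.25 in controls. A single ethanol-treated mouse lay above the control median, 5 controls lay above every ethanol-treated mouse, and the log2 fold change of -0.18 (SE 0.05) had an adjusted p of 0.0065 by limma, or -11.7%. Psmg2, which belongs to another chaperone pair, was at -0.03 (SE 0.04, adjusted p = 0.71). Psmc3ip, the gene that shares only the spelling, was at -0.14 (SE 0.04, adjusted p = 0.015), with all 20 ethanol-treated mice below the control median.

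The called differences depended on which chips were compared. Between chips, with the 16 ethanol-treated mice of chips 1 and 2 against the 8 controls of chip 4, 6 of 36 proteasome genes passed an FDR of 1% (16.7%, against 11.3% of all genes). Psma7 was higher, and Psma2, Psmb2, Psmc3, Psmd10 and Psmc3ip were lower in ethanol-treated mice. On chip 3, with 4 mice of each group, 0 of 36 passed an FDR of 1% by limma, against 3.03% of all genes, and 8 of 36 had an unadjusted p below 0.05 (22.2%, against 27.2% of all genes). At the looser threshold, 5 of the 36 passed on chip 3 (13.9%, against 17.4% of all genes), of which Psma2 was higher and Psma4, Psma7, Psmb7 and Psmg3 were lower. The median log2 difference of the 36 genes was -0.06 between chips and -0.02 on chip 3.

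Psmb7 and Psmg3 had similar differences in both comparisons, which share no array. On chip 3, however, every ethanol-treated mouse held an odd position. Both genes were also lower at odd positions on chips 1, 2 and 4, where only Psmg3 passed an FDR of 1%, as given below. Treatment and position cannot be told apart on chip 3. The log2 difference of Psmb7 was -0.19 (SE 0.06, adjusted p = 0.015) between chips and -0.18 (SE 0.06, adjusted p = 0.073 by limma) on chip 3. On chip 3 its signals were 11.75, 11.84, 11.85 and 11.81 in ethanol-treated mice and 11.99, 11.84, 12.02 and 12.14 in controls, so that only the lowest control came within the range of the ethanol-treated mice. For Psmg3 the differences were -0.19 (SE 0.06, adjusted p = 0.018) and -0.17 (SE 0.06, adjusted p = 0.063 by limma). Psmd10 differed mostly between chips. Its log2 difference was -0.27 (SE 0.04, adjusted p = 2.4e-05) between chips and -0.04 (SE 0.06, adjusted p = 0.72 by limma) on chip 3, where the signals of 9.67, 9.60, 9.66 and 9.53 in ethanol-treated mice overlapped with 9.55, 9.62, 9.69 and 9.74 in controls. The 4 controls of chip 3 averaged 9.65, below the 8 controls of chip 4 at 9.89. The difference of the contrasts for Psmd10 was 0.23 (SE 0.07, adjusted p = 0.024), which did not pass an FDR of 1%.

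**Figure D2:**
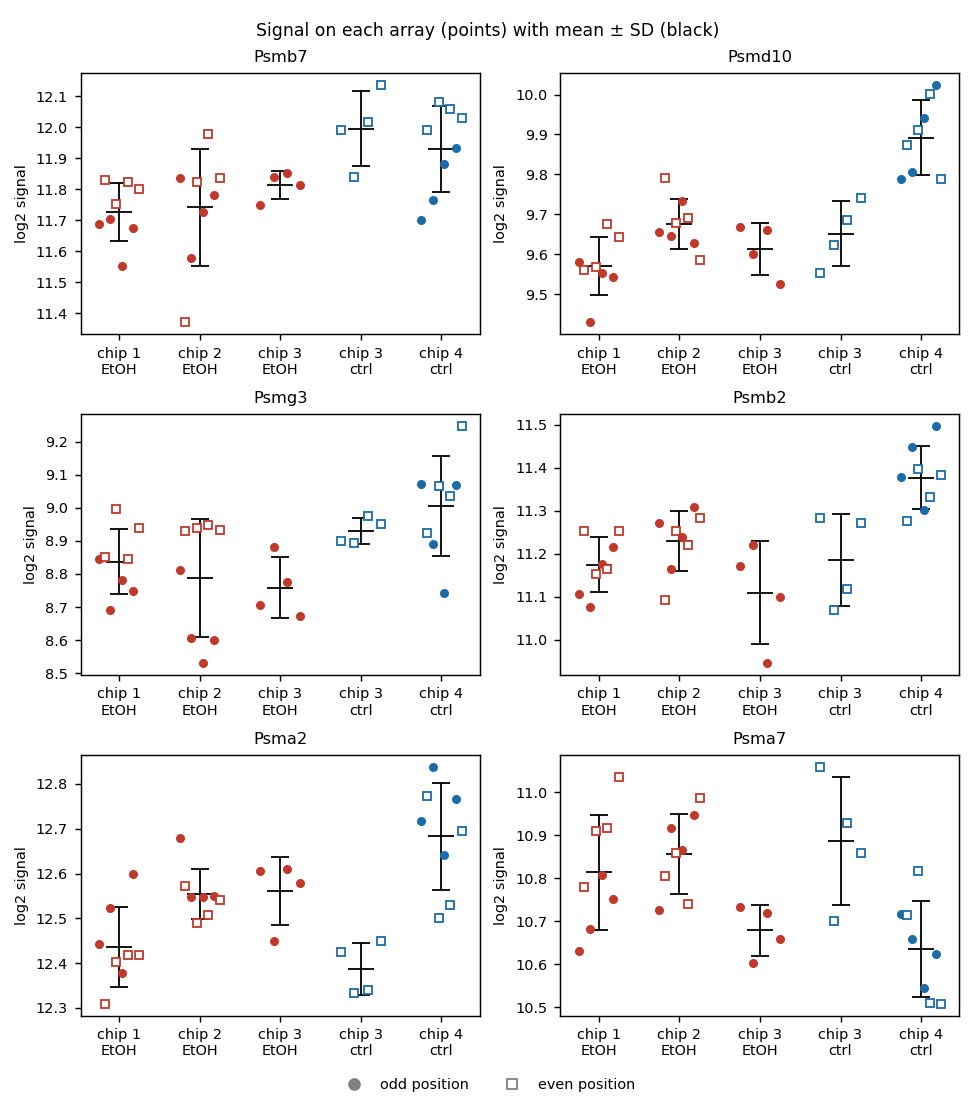
Points give the log2 signal of 6 proteasome genes on each array, by chip and group, from the brightest tested probe of each gene. The mean and SD of each set are in black. Filled circles are odd and open squares even positions. In Psmd10 and Psmb2 the controls of chip 4 sit highest, and in Psma2 and Psma7 the controls of chip 3 and chip 4 lie on opposite sides of the ethanol-treated mice.

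For 2 of the 36 genes the contrasts of chip 3 and of the other chips differed at an FDR below 1% (5.56%, against 3.52% of all genes), and both encode alpha subunits. Psma2 was higher in ethanol-treated mice on chip 3, with 12.61, 12.45, 12.61 and 12.58 against 12.43, 12.33, 12.34 and 12.45 in controls. It was lower between chips, with means of 12.44 on chip 1 and 12.55 on chip 2 against 12.68 on chip 4. The log2 differences were 0.17 (SE 0.05) and -0.19 (SE 0.04), and their difference was 0.36 (SE 0.07, adjusted p = 0.0022 by limma). Psma7 had the reverse order. On chip 3 its signals were 10.73, 10.60, 10.72 and 10.66 in ethanol-treated mice and 11.06, 10.70, 10.93 and 10.86 in controls, and the means of chips 1, 2 and 4 were 10.81, 10.86 and 10.64. The log2 differences were -0.21 (SE 0.07) and 0.20 (SE 0.05), and their difference was -0.41 (SE 0.09, adjusted p = 0.0045 by limma). In both genes the ethanol-treated mice of the 3 chips averaged closer to each other than the controls of the 2 chips did. The pooled log2 fold changes of -0.08 for Psma2 and 0.08 for Psma7 therefore average opposite differences.

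**Figure D3:**
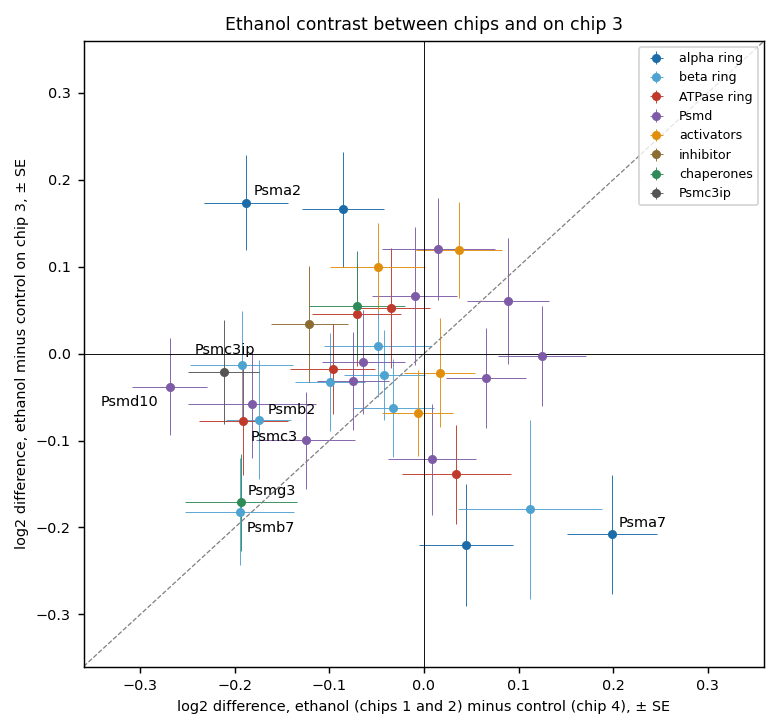
Log2 difference of each of the 36 genes between chips (horizontal axis, ethanol on chips 1 and 2 minus control on chip 4) and on chip 3 (vertical axis), with SE bars; the dashed line marks equal values. Psmb7 and Psmg3 lie near the line in the lower left, Psmd10 lies near 0 on the vertical axis, and Psma2 and Psma7 lie in the quadrants of opposite sign.

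Other tissue markers moved on chip 3 together with treatment and position. The 5 tested olfactory bulb genes were all higher in the ethanol-treated mice of chip 3, with a median log2 difference of 0.55 and 3 genes (Calb2, Doc2g and Trh) past an FDR of 1%, and their mean level ranged from 9.05 to 9.26 in those mice and from 8.37 to 8.84 in the controls. The 9 tested oligodendrocyte genes were all lower there, with a median of -0.36, and their mean level ranged from 10.34 to 10.53 against 10.46 to 11.12 in controls. Eomes and Tbx21 of the bulb list and Gjb1 of the oligodendrocyte list were below the detection filter. Between chips the medians of the lists were -0.02 and 0.05, with 0 genes past an FDR of 1% in either list by limma and 0 at an unadjusted p below 0.05.

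Markers of astrocytes and of the endothelium were called in the comparison between chips. Of 9 tested astrocyte genes, Aqp4 (log2 difference 0.47) and Fgfr3 (0.18) were higher and Glul (-0.17) was lower, and the mean level of the list ranged from 10.16 to 10.38 in the ethanol-treated mice of chips 1 and 2 and from 10.15 to 10.40 in the controls of chip 4. Of 8 tested endothelial genes, Cldn5 (-0.29) and Esam (-0.20) were lower, with mean levels of the list from 9.17 to 9.33 and from 9.15 to 9.30. Cldn5 was higher on chip 3 (0.42), and its difference of the contrasts was 0.71 (adjusted p = 6.2e-05 by limma), a turn of sign as in Psma2. Gad1, Slc17a7, Aqp4, Slc1a3 and Cnp were the other markers called on chip 3 outside the bulb list. Over all arrays Aqp4 (0.47, adjusted p = 0.0013) and Slc17a7 (-0.26, adjusted p = 0.0046), a marker of excitatory neurons, were the only markers called. Gfap, Gad2, Nefl and Snap25 were below the detection filter, as were Kdr and Ocln. The part of these cells and tissues in the proteasome values was not tested.

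Position was compared without treatment on chips 1, 2 and 4, within which every mouse had the same treatment. On each of these chips, all mice at odd positions had lower label numbers than all mice at even positions. The same held for the ethanol-treated mice and controls of chip 3. Position therefore cannot be told apart from the order of mouse numbers, whose meaning the labels do not give. With chip as a block, 3 of the 36 genes differed between odd and even positions at an FDR below 1% (8.33%, against 3.79% of all genes). Psmg3 was lower at odd positions by limma (log2 difference -0.19, SE 0.04, adjusted p = 0.0062), a difference as large as that between treatments. Psmb10 was higher (0.18, SE 0.04, adjusted p = 0.0047), and so was Psmg2 (0.16, SE 0.04, adjusted p = 0.0070). Psmb7 was at -0.13 (SE 0.05, adjusted p = 0.079) and Psmd10 at -0.04 (SE 0.03, adjusted p = 0.51). The medians of the olfactory bulb and oligodendrocyte lists at odd against even positions were 0.29 and -0.14, and their part in these values was not tested. A fit with chip as a block and position as a covariate draws on treatment within chip 3 only. It takes the position difference of chips 1, 2 and 4 to hold on chip 3 too, which was not tested. In this fit the log2 fold change was -0.05 for Psmb7, -0.00 for Psmd10 and 0.02 for Psmg3, with adjusted p-values of 0.911, 0.997 and 0.968 by limma. The median of the 36 genes was -0.01, and 0 of them passed an FDR of 1% by limma, beside 0.0126% of all genes. Chips 1 and 2, which both held ethanol-treated mice, differed in 0 of 36 proteasome genes and 0% of all genes at an FDR below 1% by limma, with 5 of 36 at an unadjusted p below 0.05.

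A gene was represented on the array by up to 3 probes of 50 bases, and for 10 of the 36 tested genes several probes passed the filter. Where any probe of a gene was allowed to call it, 5 of 36 genes passed an FDR of 1% (13.9%, against 9.78% of all genes), with Psmb2 and Psmb10 added. The first 30 bases of the probes of 5 genes follow, chosen because a call was made by some probes of the gene and not by others (Psmb2, Psmb7, Psmb10 and Psmd10) or because overlapping probes differed in detection (Psmd2). They are given in the array table, each named by its gene and its start in the transcript. Capitals mark bases that lie in the stretch shared with a second probe of the same gene. Psmb2 lies on chromosome 4, Psmb7 on 2, Psmb10 on 8, Psmd2 on 16 and Psmd10 on X.
Psmb2, start 469: ggctccttttgcagctcatggctatggtgc
Psmb2, start 683: gcgggactcctaacgtcacgtccttccctc
Psmb2, start 766: tttgacgttcactcttgatagatggttaat
Psmb7, start 98: aaggggttcaagctcccgaaagctcggaaa
Psmb7, start 433: ggggggagtagatgttactggacctcatct
Psmb7, start 881: gcataccacccctaccccaaccccattcta
Psmb10, start 776: attgagcacccccaccgagcctgtgcagag
Psmb10, start 867: gacccctgaccctggaacttcttgaggaaa
Psmd2, start 121: ggcaaggaGCGAAGGGATGCCGGGGAAAAA
Psmd2, start 130: GCGAAGGGATGCCGGGGAAAAAGACAAAGA
Psmd10, start 161: gcactgggcatgctcagctggccatacaga
Psmd10, start 691: agagactagcagaaagtgaagaggcttcta
Psmd10, start 817: gctcctactgaagtaccgggtctatgcttt

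The probes of Psmb10 disagreed. Psmb10 encodes the immunoproteasome subunit that takes the place of Psmb7. At start 776 the signal ranged from 10.01 to 10.42 in ethanol-treated mice and from 10.15 to 10.70 in controls, with a log2 fold change of -0.26 (SE 0.05, adjusted p = 0.00027 by limma). At start 867 the ranges were 10.05 to 10.63 and 10.20 to 10.54, and the log2 fold change was -0.03 (SE 0.04, adjusted p = 0.73). The log2 fold changes of these probes differed by -0.24 (SE 0.06, adjusted p = 0.0044 by limma over 2261 pairs of a dimmer and the brightest probe of a gene). This was the only one of 12 such pairs among the proteasome genes to pass an FDR of 1%, and 4.95% of all pairs passed. The sign of the probe difference held on chip 3 (-0.17) and between chips (-0.29). The call at start 776 rested mostly on the comparison between chips. Its log2 difference was -0.34 (SE 0.04, adjusted p = 5.0e-06 by limma) there. On chip 3, where treatment goes with position, it was -0.16 (SE 0.06, adjusted p = 0.084 by limma). The controls of chip 3 averaged 10.25, below the other controls at 10.55, beside 10.19 for all ethanol-treated mice. The difference of the contrasts was 0.18 (SE 0.08, adjusted p = 0.16 by limma).

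For Psmd10 the call rested on the probe at start 817, the brightest of 3. The probes at starts 161 and 691 had log2 fold changes of -0.04 (SE 0.04) and -0.05 (SE 0.04), and the differences from the probe at 817 were 0.16 (SE 0.04, adjusted p = 0.0104) and 0.14 (SE 0.04, adjusted p = 0.035). For Psmb7 all 3 probes had negative log2 fold changes, of -0.20 at start 98, -0.12 at 433 and -0.06 at 881, and the first passed. On chip 3 the order was another, with -0.18, -0.32 (adjusted p = 0.011 by limma) and -0.05. For Psmb2 the probe at start 469 fell by 0.22 on the log2 scale (SE 0.04, adjusted p = 0.00061 by limma), beside -0.13 for the brighter probe at 683. The log2 fold changes of these probes differed by -0.09 (SE 0.05, adjusted p = 0.29 by limma), with -0.23 on chip 3 and -0.02 between chips. The Psmb2 probe at 766 was detected on 0 of 32 arrays. The probes of Psmd2 share 42 of 50 bases by sequence, yet that at 121 was detected on 26 arrays and that at 130 on 2. The log2 fold changes of the probe pairs of Psma7 and Psmd7 differed by 0.02 (SE 0.04) and 0.01 (SE 0.06).

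**Figure D4:**
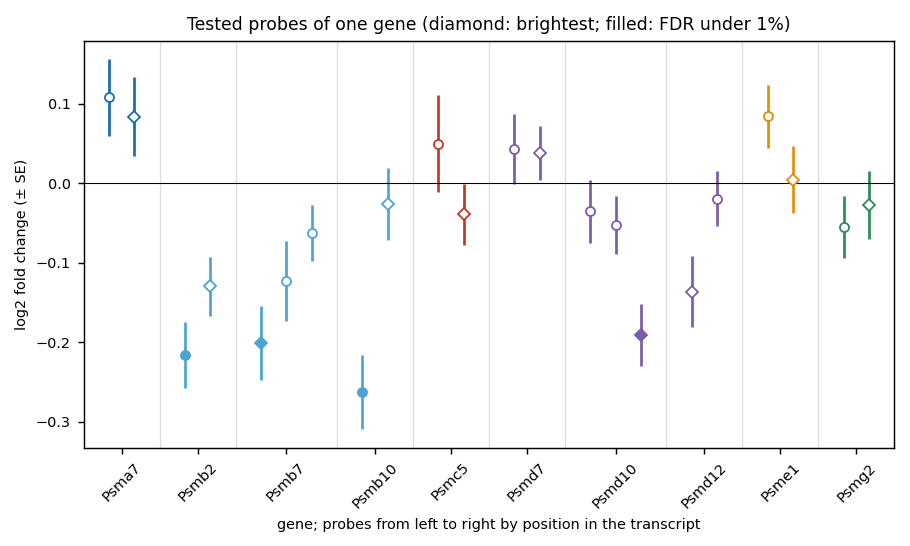
Log2 fold change (ethanol-treated minus control, with SE bars) of each tested probe of the 10 genes with several tested probes, from left to right by start in the transcript. The 2 probes of Psmb10 lie at -0.26 and -0.03, and of the 3 probes of Psmd10 only that at -0.19 is filled, which marks an FDR below 1%.

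Correlations between the measured proteasome genes across mice were low. After the mean of each chip and odd or even position was removed, Pearson correlations across the 32 arrays had a median of 0.06 over the 595 pairs of 35 genes, and of 0.11 over the 66 pairs of the 12 core genes, beside -0.00 over all pairs of tested genes. The points of each correlation share the array, its RNA and its scaling. Probes of a single gene also correlated weakly by this measure, from -0.45 for the pair of Psmd7 to 0.38 for that of Psma7. Low values between genes therefore cannot show that the transcripts did not vary together. The highest value was 0.71 for Psmb3 and Psmd14, and the lowest -0.64 for Psma2 and Psmd7. The mean log2 signal of the 36 genes lay between 10.46 and 10.55 in ethanol-treated mice and between 10.51 and 10.62 in controls, so the ranges overlapped. By chip its median was 10.52 on chip 1 and 10.51 on chip 2, 10.50 and 10.53 for the ethanol-treated mice and controls of chip 3, and 10.56 on chip 4.

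Partners of the proteasome were taken from a list of 29 assembly factors, bound enzymes, shuttle factors, ubiquitin genes and transcription factors, of which 18 were tested. Of these, 3 passed an FDR of 1% over all arrays, 1 higher and 2 lower, a share of 16.7% beside 8% of all tested genes, and the median log2 fold change was -0.06. AI314180, the gene of the proteasome adaptor Ecm29, was higher in ethanol-treated mice (log2 fold change 0.22, SE 0.06, adjusted p = 0.0074 by limma). Ubqln4, a shuttle factor that carries ubiquitinated proteins to the proteasome, was lower (-0.28, SE 0.06, adjusted p = 0.0012). Rps27a, which encodes ubiquitin fused to a ribosomal protein, was lower too (-0.15, SE 0.04, adjusted p = 0.0053). None of the 3 passed between chips, where the log2 differences of AI314180, Ubqln4 and Rps27a were 0.14, -0.26 and -0.16 (adjusted p of 0.10, 0.0104 and 0.015 by limma). On chip 3 they were 0.45, -0.32 and -0.11, and AI314180 passed (adjusted p = 0.0058 by limma). Uba1, another listed partner, also passed there (-0.40, adjusted p = 0.0029 by limma). It was at -0.12 over all arrays (adjusted p = 0.30 by limma) and at 0.02 between chips. The share called on chip 3 was 11.1%, against 3.03% of all genes. With chip as a fixed block, 0 of the 18 partners passed by limma, beside 0.164% of all genes. Pomp, the maturation factor of the core, was at -0.11 (SE 0.04, adjusted p = 0.025) over all arrays. It was the only partner called between chips (-0.19, adjusted p = 0.00039), was at 0.05 on chip 3 (adjusted p = 0.64), and its difference of the contrasts was 0.24 (adjusted p = 0.018). Nfe2l1, the transcription factor that raises proteasome genes when the proteasome is inhibited, was at -0.10 (SE 0.04, adjusted p = 0.041). Of 19 genes of antigen processing and the interferon response, which are induced with the immunoproteasome, 10 were tested and 0 passed an FDR of 1% over all arrays by limma, with 0 at an unadjusted p below 0.05 and log2 fold changes between -0.05 and 0.06. The 11 tested microglia markers had a median log2 fold change of -0.05, with 0 past an FDR of 1% by limma and 2 at an unadjusted p below 0.05.

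Nfe2l1 and its relative Nfe2l2 are known to bind antioxidant response elements, whose core is written here as TGACNNNGC. RefSeq promoter windows (GRCm38.p6, 250 bases before to 50 after a start) were found for 37 of the 44 genes, without Psmc3ip. The motif, on either strand, was in 15.0% of their 40 windows and in 12.39% of all 32851 windows. The 6 genes with a match were Psmb5, Psmb6, Psmc6, Psmd9, Psmd12 and Psme4, of which 4 were tested and 0 called over all arrays by limma, and Psmb6 and Psmd12 had an unadjusted p below 0.05. CCAAT was in 32.5% of the windows of proteasome genes and 37.41% of all, and GGGCGG in 57.5% and 35.66%, also on either strand. A match is a description of the letters and not of a bound site. The 250 bases before the starts of Psmb5 (chr14:54617996-54618245, minus strand) and Psmb6 (chr11:70525107-70525356, plus strand), both proteolytic subunits, are shown from 5′ to 3′ with the match in capitals, at 47 and 9 bases before the start.
Psmb5: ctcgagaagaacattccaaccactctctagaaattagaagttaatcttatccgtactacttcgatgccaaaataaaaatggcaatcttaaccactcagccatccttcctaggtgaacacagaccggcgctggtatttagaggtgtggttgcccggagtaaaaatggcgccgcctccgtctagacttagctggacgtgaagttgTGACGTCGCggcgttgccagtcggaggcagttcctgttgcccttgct
Psmb6: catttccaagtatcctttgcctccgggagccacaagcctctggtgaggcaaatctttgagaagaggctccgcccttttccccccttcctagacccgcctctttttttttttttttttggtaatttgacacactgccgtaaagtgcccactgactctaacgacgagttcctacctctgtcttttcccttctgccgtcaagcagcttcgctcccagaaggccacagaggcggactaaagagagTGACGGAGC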

How the data were processed

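Biotin-labelled cRNA of 32 mice was read on as many arrays. The intensities, which the authors deposited without normalization, are mean bead signals per probe in linear units. The authors also deposited detection p-values, standard errors over beads (a signal spread per probe) and bead numbers, as other values. The submitters' processing notes name lumi and limma, and the background step is not given in the sources used here.

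From these, a variance-stabilizing transform after lumi's was computed and followed by quantile normalization (R 4.3.3, limma 3.58.1, version 1.17.8 of data.table), which gives log2 values. Groups were compared by limma with Benjamini-Hochberg adjustment over all 10187 tested probes, and a gene took the value of its brightest tested probe. Named genes were members called in any ethanol comparison, members with several tested probes, proteolytic subunits, Psmd14, activators, Psmf1, chaperones, and called partners. Pomp, Nfe2l1, Uba1 and the markers were chosen with their values known. Members, lists and tests were chosen with earlier results of these data known. The fits were checked on simulated data. Arrays were scaled, filtered, weighted and left out in other ways as alternatives. Levels were not compared between probes. Figures and sequence matches were made in Python 3.11.15 with pandas 2.3.3, numpy 2.4.6 and matplotlib 3.10.9.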

Additional observations from a re-analysis of the deposited data

Results flagged for a closer look

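The ethanol effect on chip 3 minus that between the other chips passed an FDR of 1% by limma for Psma2 (log2 difference 0.36) and Psma7 (-0.41). Within the controls of chip 3 or chip 4, a single array lay far from the others in 5 of 108 sets of arrays checked, a share that chance gives in about 1 of 20 sets. Control C52 on chip 3 stood above its group in Psma5 (12.46, next 12.22), Psmc2 (12.36, next 12.17) and Psmd5 (8.72, next 8.51). In Psmb1, control C55 on chip 3 lay at 11.35 (next 11.23) and control C57 on chip 4 at 11.04 (next 11.25). None of the genes with such an array was called over all arrays.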

How the results depend on the processing

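Over all arrays, 3 proteasome genes were called by limma at an FDR of 1%. With median scaling of the arrays, with chip as a fixed block, with chip as a random block, with chip fixed and odd or even position, and at even positions only, the count was 0 each, and 10, 4, 7, 1 and 5 genes had an unadjusted p below 0.05. The same fits called 1.46%, 0.164%, 0.643%, 0.0126% and 0.0252% of all genes, so that a count of 0 among 36 was near the share of all genes. With median scaling Psmb7, Psmd10 and Psmg3 kept log2 fold changes of -0.25 (SE 0.06), -0.19 (SE 0.06) and -0.17 (SE 0.04). The count was 7 at an FDR below 10% with a 1.1-fold change (11.7% of all genes called) and 5 with the probe of lowest p-value (9.78%). At odd positions only it stayed at 3, beside 3.53% of all genes, but the genes called were Psmb2, Psmc3ip and Psmd10. Psmb7 and Psmg3 did not pass there. Within odd or within even positions no chip held both groups, so treatment cannot be told apart from chip in either fit. All controls at odd positions came from chip 4. Leaving out single arrays gave 2 to 6: 6 without control C54 or C55, 5 without C56, and 2 without C57, C62, C64, C65 or C66, in each of which Psmg3 no longer passed. With chip fixed and position, which takes the position difference to be the same on chip 3, Psmg3 turned to 0.017 (adjusted p = 0.97 by limma).

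Between chips, the count of 6 became 0 with median scaling (11 at an unadjusted p below 0.05, 2.69% of all genes called). It was 10 at the looser threshold, beside 19.1% of all genes, and 5 to 8 without single arrays. With median scaling the log2 differences of the 6 stayed at -0.23 for Psma2, 0.20 for Psma7, -0.19 for Psmb2, -0.20 for Psmc3, -0.24 for Psmd10 and -0.18 for Psmc3ip. On chip 3 the count was 0, 5 at the looser threshold (17.4% of all genes called), and 0 without any single array. For the difference of the contrasts, the count of 2 became 1 with normexp background (2.25% of all genes called). It was 0 with median scaling (5 at an unadjusted p below 0.05, 0.707% of all genes called) and 6 at the looser threshold (16.6% of all genes called). Under median scaling Psma2 and Psma7 kept differences of 0.35 and -0.44. For odd against even positions, the count of 3 became 1 with normexp background (2.04% of all genes called). It was 0 with median scaling (11 at an unadjusted p below 0.05, 0% of all genes called). With all probes it was 1 (0.987% of all genes called), and at the looser threshold 6 (9.84%). The cause was not tested. Median scaling also moved the median odd against even difference of the 36 genes from -0.00 to 0.07, with 8 negative in place of 19. For chip 1 against chip 2 it kept the count at 0, with 15 of 36 genes at an unadjusted p below 0.05 by limma in place of 5. It called 0.669% of all genes there, in place of 0%. No paired analysis was possible because the groups share no mouse numbers.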
